A study of Homo sapiens with 6 samples.

Results

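The genes that encode the factors of RNA polymerase II pause release were followed across 4 lists of occupied regions from HepG2 cells. They are CDK9, CCNT1, CCNT2, HEXIM1, NELFA, NELFB, NELFCD, NELFE and SUPT5H, and their regions were taken by the gene symbol that the authors assigned to each region. Of 271336 listed regions, 173 carried the symbol of one of the 9 genes. In WT cells these were 24 of 46045 RPB1 regions and 64 of 102674 phospho-Ser2 RPB1 regions. In SHP-1 KO cells they were 28 of 41605 RPB1 regions and 57 of 81012 phospho-Ser2 RPB1 regions.

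Promoter-proximal pausing is the step at which RNA polymerase II halts shortly after initiation, held by NELF and by DSIF, the complex that contains the SUPT5H product. P-TEFb, formed by the kinase CDK9 and cyclin T1 or T2, phosphorylates NELF, SUPT5H and serine 2 of the C-terminal repeats of RPB1, the largest polymerase subunit, and elongation follows. HEXIM1 holds P-TEFb inactive on a small nuclear RNA.

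HepG2 is an established human hepatoma line. WT cells were labelled as the CRISPR control. The study made untransfected and nontargeting guide controls, and which of them gave the WT libraries is not stated. SHP-1 KO cells came from clonal lines in which guides had been directed at exons of the phosphatase domain of PTPN6, the gene of the tyrosine phosphatase SHP-1. The cells were otherwise untreated. Chromatin was recovered with an antibody to RPB1 or to phospho-Ser2 RPB1, with 1 library for each antibody and genotype, so a difference between genotypes has no replicate check and differences between clones cannot be told apart from the knockout. The region lists do not show whether PTPN6 was disrupted. The study reports Western blots for SHP-1 and sequencing across the guide sites in its KO clones. As a check of the cell type, an RPB1 region lay over the start of 9 of 9 hepatocyte genes, ALB and APOB among them, in WT and in KO cells, and over 0 of 7 starts of genes that mark blood, endothelial, astrocyte, muscle, epithelial or fibroblast cells.

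The promoters of 5 of the 9 genes are given, namely the 4 that hold GCATGCGC and that of SUPT5H, which lacks it. RPB1 was recovered over all 9 starts. The promoters of CDK9, CCNT1, NELFA and NELFE are not shown and also lack GCATGCGC. Each sequence runs from 150 bases before the start to 20 bases after it, on the strand of the gene, from RefSeq on GRCh38.p14. Capitals mark GCATGCGC, the core of the NRF1 motif, on either strand, where matches on both strands overlap, and in HEXIM1 also TATAAA, and in SUPT5H AAGATGGCG, the YY1 core, and TCTCGCGA.
HEXIM1: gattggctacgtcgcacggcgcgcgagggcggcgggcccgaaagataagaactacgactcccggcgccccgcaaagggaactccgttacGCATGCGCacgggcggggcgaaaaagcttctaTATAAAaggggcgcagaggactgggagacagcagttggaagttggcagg
CCNT2: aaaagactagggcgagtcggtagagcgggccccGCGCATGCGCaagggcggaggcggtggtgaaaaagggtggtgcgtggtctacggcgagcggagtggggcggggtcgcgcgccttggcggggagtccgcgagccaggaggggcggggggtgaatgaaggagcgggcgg
NELFB: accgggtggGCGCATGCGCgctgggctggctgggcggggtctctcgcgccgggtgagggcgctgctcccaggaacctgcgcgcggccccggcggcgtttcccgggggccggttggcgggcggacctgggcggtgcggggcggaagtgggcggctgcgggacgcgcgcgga
NELFCD: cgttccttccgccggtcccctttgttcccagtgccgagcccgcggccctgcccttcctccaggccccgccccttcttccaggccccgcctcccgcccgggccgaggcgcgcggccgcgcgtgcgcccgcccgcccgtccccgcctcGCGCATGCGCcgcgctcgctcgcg
SUPT5H: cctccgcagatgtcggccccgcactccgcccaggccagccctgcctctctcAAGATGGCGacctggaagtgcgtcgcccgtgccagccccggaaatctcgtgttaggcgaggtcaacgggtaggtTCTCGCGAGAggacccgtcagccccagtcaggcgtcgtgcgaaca
They lie at chr17:45148325-45148494, chr2:134918672-134918841, chr9:137255177-137255346, chr20:58981106-58981275 and chr19:39445432-39445601, all on the forward strand.

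All 9 genes had a RefSeq promoter whose start matched the GENCODE start used here. In windows of 300 bases, GCATGCGC was found in 4 of the 9 promoters and in 3.05% of 35116 RefSeq promoters. The ETS core CCGGAAGT was found in 3, CDK9, CCNT1 and NELFE, against 4.14% of all promoters. AAGATGGCG was found in NELFA and SUPT5H, against 1.75% of all. TATAAA was found in HEXIM1 alone among the 9, beginning 29 bases before the start, against 11.5% of all promoters. The GC box GGGCGG was found in 8 of 9 and in 45.0% of all, and CCAAT in 3 of 9 and in 34.6%. The median GC content of the 9 windows was 69%, against 58.7% over all promoters, and the median number of CG dinucleotides was 36 against 14. Both strands were searched, the motifs were chosen after the sequences had been read, and a match describes letters only.

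RPB1 lay over the start of every one of the 9 genes in WT cells and in KO cells. Over 19955 protein-coding genes, the share of starts inside an RPB1 region was 57.7% in WT and 55.4% in KO. The height of a region is its fold enrichment over input DNA at the summit, and the median over the 9 starts was 44.3 in WT and 30.6 in KO. The medians over all covered starts were 29.6 and 21.4. The assigned symbol alone would miss some of these regions. By symbol, a promoter RPB1 region was listed for 5 of 9 genes in WT and 7 of 9 in KO, against 86.3% and 87.9% of all assigned genes, since the region over the start carried the symbol of a neighbour at CDK9 (MIR2861), CCNT2 (CCNT2-AS1) and NELFE (SKIV2L) in both cell types and at NELFB (STPG3-AS1) in WT only. Of all covered starts, 22.9% in WT and 22.5% in KO had a region assigned to another gene. The values at the starts are therefore taken by position.

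**Figure D1:**
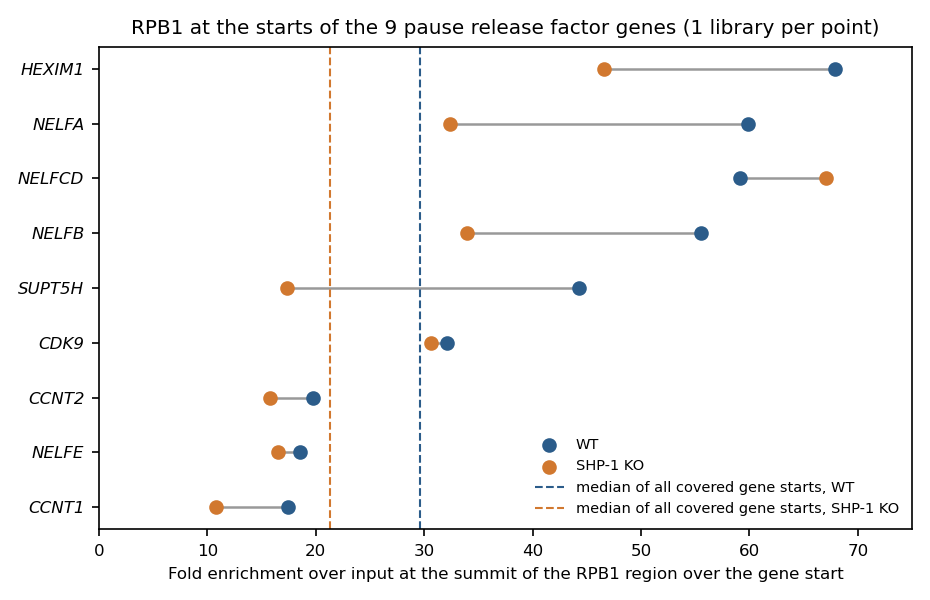
Fold enrichment over input (x axis, linear) of the RPB1 region over the start of each gene (y axis) in WT (blue) and SHP-1 KO (orange) cells, 1 library per point, with dashed lines at the medians over all covered gene starts. HEXIM1, NELFA, NELFCD, NELFB, SUPT5H and CDK9 lie above the WT median, and NELFCD is the gene whose KO point lies to the right of its WT point.

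Among the P-TEFb genes, CDK9 had the strongest start. CDK9, the kinase, had an RPB1 region at chr9:127785149-127787036 in WT with a fold enrichment of 32.1 (rank 4978 in its list). In KO the region at chr9:127785104-127786713 had 30.6 (rank 2762). The fold enrichments were close, and the rank was nearer to the top of the list in KO. MIR3960 begins 201 bases before the CDK9 start, inside the same region.

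CCNT1, which encodes cyclin T1, had the lowest RPB1 values of the 9 starts. The region at chr12:48715449-48717604 had a fold enrichment of 17.5 in WT (rank 9337), and the region at chr12:48716080-48717200 had 10.8 in KO (rank 10591). CCNT2, which encodes cyclin T2, had 19.8 in WT at chr2:134917168-134919674 (rank 8574) and 15.8 in KO at chr2:134917428-134919686 (rank 7814). The cyclin genes thus lay below the median of covered starts in both cell types, at the 21.7 and 27.1 percentiles of covered starts in WT.

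HEXIM1, the inhibitor of P-TEFb, had the highest RPB1 value of the 9 in WT. Its region at chr17:45142033-45150546 had a fold enrichment of 67.9 (rank 497) and a length of 8.51 kb, longer than the gene itself (3.625 kb). In KO the region over the start, chr17:45146113-45150565, had 46.6 (rank 771) and a length of 4.45 kb. The KO list held 3 further HEXIM1 regions upstream of it, with fold enrichments of 7.14, 14.8 and 7.11, within the span of the WT region. The WT and KO lists thus covered nearly the same stretch, divided differently.

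The 4 NELF genes differed among themselves. NELFA had 59.9 in WT at chr4:2008378-2010373 (rank 856) and 32.4 in KO at chr4:2008656-2010113 (rank 2431). NELFB had 55.5 in WT at chr9:137253477-137256186 (rank 1193) and 34.0 in KO at chr9:137254722-137255993 (rank 2153). NELFCD had 59.1 in WT at chr20:58980550-58982280 (rank 908) and 67.0 in KO at chr20:58980753-58982224 (rank 163). NELFCD was thus the highest of the 9 starts in KO, and the only one of them higher in KO than in WT. NELFE, the gene of the RNA-binding subunit, had 18.6 in WT at chr6:31958348-31959596 (rank 8932) and 16.5 in KO at chr6:31958625-31959526 (rank 7466), near the values of CCNT2.

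SUPT5H, the DSIF subunit that P-TEFb phosphorylates, had 44.3 in WT at chr19:39444767-39446406 (rank 2489) and 17.3 in KO at chr19:39444996-39446174 (rank 7120). Upstream of this start the SUPT5H gene record extends toward RPS16, whose own promoter region had 48.8 in WT and 33.9 in KO. Between them, the listed RPB1 regions assigned to SUPT5H were between 5.65 and 8.15 in WT and between 4.72 and 8.97 in KO. These ranges overlapped between WT and KO, while the region over the SUPT5H start was higher in WT.

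The KO to WT ratio of RPB1 over the start was below 1 at 8 of the 9 genes, and 87.7% of 10906 genes covered in both lists had a ratio below 1. The median ratio of the 9 was 0.687, against 0.717 over all of these genes. The ratio was at most 1/1.5 at 4 genes, CCNT1 (0.618), NELFA (0.541), NELFB (0.611) and SUPT5H (0.391), and 40% of all genes were at or past that limit. It was at least 1.5 at 0 of the 9, against 1.09% of all genes. The 9 genes as a group thus lay close to the background. SUPT5H lay at the 3.19 percentile of all ratios and NELFCD, with 1.13, at the 93.9 percentile. Over the whole SUPT5H gene record the strongest region is that with the symbol RPS16, and the ratio was 0.696. As the median over its assigned regions, SUPT5H had a ratio of 0.886. Relative to the median of all genes, SUPT5H had 0.546 and NELFCD 1.58. Among the 8425 genes whose WT value lay within the range of the 9, the percentiles were 3.42 and 96.2. The remaining ratios were 0.954 for CDK9, 0.889 for NELFE, 0.799 for CCNT2 and 0.687 for HEXIM1.

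**Figure D2:**
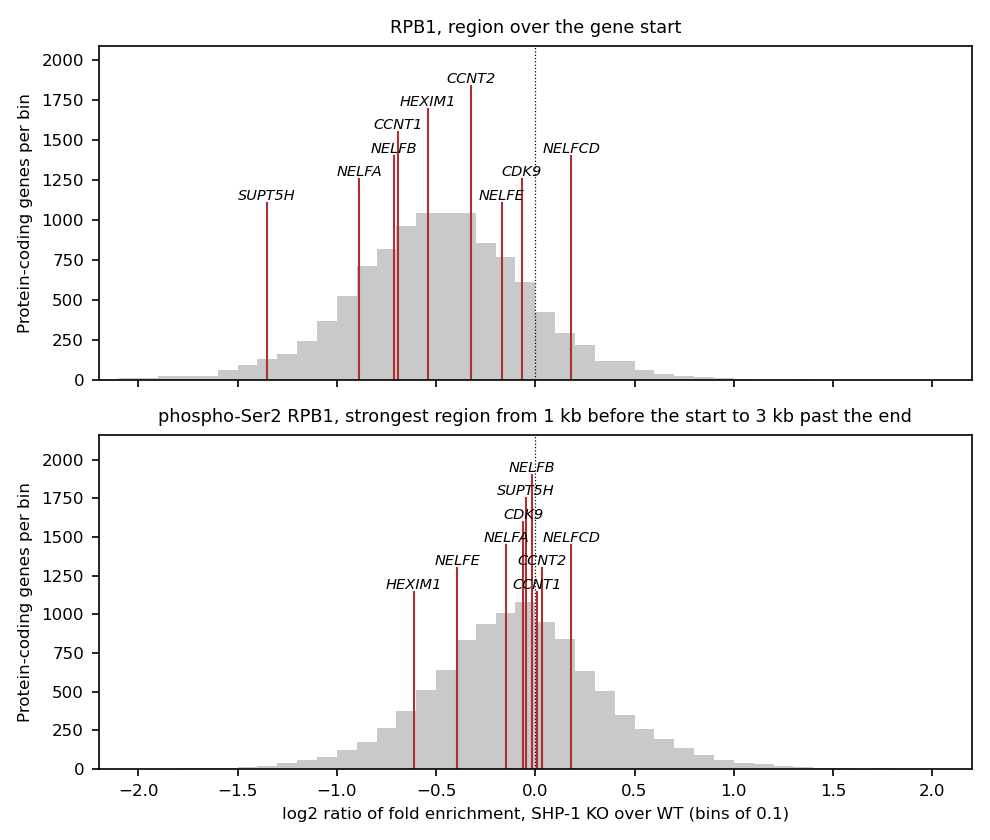
Number of protein-coding genes (y axis) per 0.1 bin of the log2 KO to WT ratio of fold enrichment (x axis), for the RPB1 region over the start (top) and for the strongest phospho-Ser2 RPB1 region from 1 kb before the start to 3 kb past the end (bottom), with red lines at the 9 genes. In the top panel SUPT5H lies in the left tail at -1.35 and NELFCD on the right at 0.18, and in the bottom panel HEXIM1 is the leftmost at -0.61.

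By assigned symbol the picture at NELFB changes direction. The highest RPB1 region carrying the symbol NELFB had 7.84 in WT and 34.0 in KO, a ratio of 4.33, since the WT region over the start carries the symbol STPG3-AS1. By position the ratio is 0.611. By symbol, 6 of the genes had a region in both lists, and 4 of these had a ratio below 1 (82.1% of all genes). Of the 6, 3 had a ratio of at most 1/1.5 (36.1% of 12877 genes) and 1, NELFB, a ratio of at least 1.5 (2.68%).

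Phospho-Ser2 RPB1 was measured next, as the form found on elongating polymerase. A phospho-Ser2 region lay over the start of 6 of the 9 genes in WT and of 1, HEXIM1, in KO. The shares over all protein-coding genes were 25.8% and 23.5%. The genes covered in WT alone were CCNT1 (4.96), NELFA (5.00), NELFB (4.30), NELFE (3.68) and SUPT5H (4.87). Of 5150 genes with a covered start in WT, 25.1% were not covered in KO, against 5 of 6 here. Those 5 WT regions were 0.233 to 0.532 kb long, where the median over the list was 350 bp. The median fold enrichment over all covered WT starts was 4.83. CCNT1, NELFA and SUPT5H lay just above it, and NELFB and NELFE below it. A missing region means only that no peak was called. With 1 kb on either side of the start allowed, the counts were 8 of 9 in WT and 5 of 9 in KO, against 35.8% and 32.4% of all genes. At that width, CDK9, CCNT1 and NELFB had a region in WT only (19.8% of the genes with one in WT), and NELFCD had none in either list.

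HEXIM1 differed from the other genes at its start. Its phospho-Ser2 region had a fold enrichment of 12.6 in WT (rank 1064) and 8.23 in KO (rank 3102). The WT region was 8.20 kb long. The KO region was 4.86 kb long and was followed by another of 3.14 kb with a fold enrichment of 7.42. The ratio over the start was 0.654. It was the only ratio past 1.5 among the 8 genes with an assigned phospho-Ser2 region in both lists, where 11.7% of 10870 genes had at most 1/1.5 and 5.71% at least 1.5. The ratio was below 1 at 5 of the 8 genes and at 59.7% of all genes. The median over these 8 genes was 0.933, and that over all genes was 0.936.

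RPB1 and phospho-Ser2 RPB1 were placed differently along the genes. The strongest RPB1 region between 1 kb before the start and 3 kb past the end was at the start in 9 of 9 genes in both cell types and past the end in 0 of 9, against 7.91% of all genes in WT and 7.69% in KO. Regions were placed in this window by their summit. The strongest phospho-Ser2 region was past the end in 5 of 9 genes in WT and in 8 of 9 in KO, and over all genes with a region it was past the end in 46.7% and 46.2%. A phospho-Ser2 summit within 3 kb past the end was listed for 8 of 9 genes in each cell type, against 69.6% and 64% of the genes with RPB1 over the start. For RPB1 the same count was 4 of 9 in WT and 7 of 9 in KO, against 37.4% and 36.1%.

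**Figure D3:**
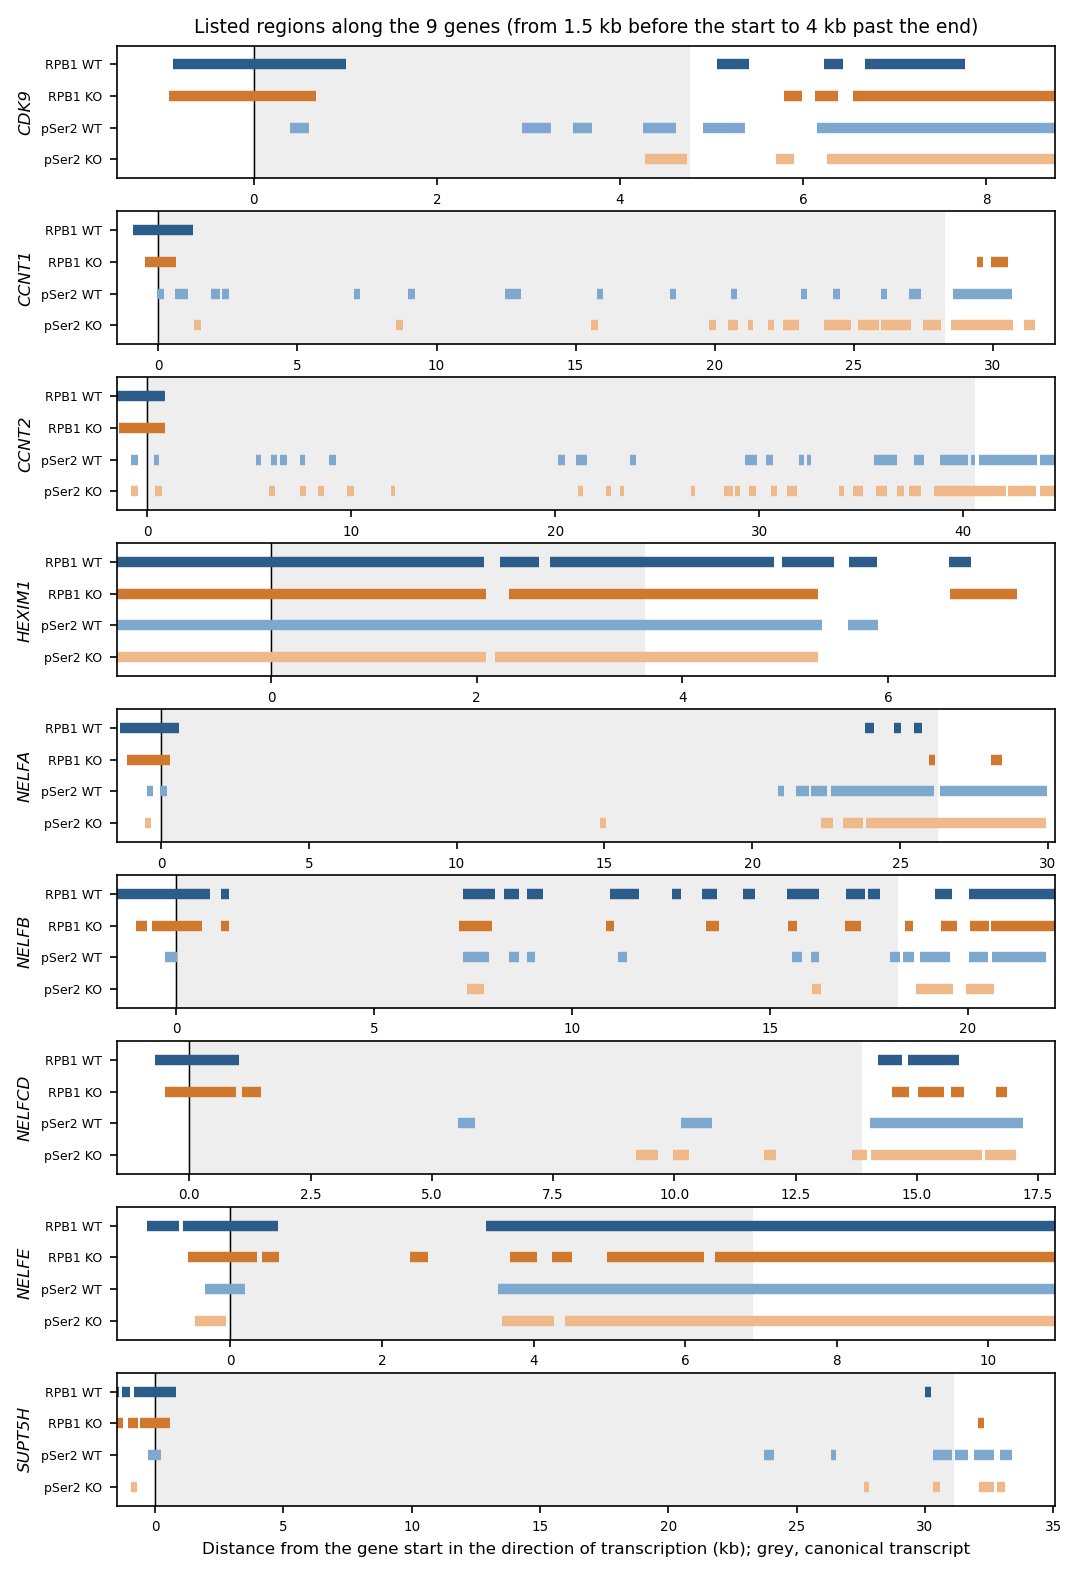
Listed regions (bars) along each of the 9 genes, in kb from the start in the direction of transcription (x axis), with 1 row each for RPB1 and phospho-Ser2 RPB1 (pSer2) in WT and SHP-1 KO (KO) cells; the vertical line is the start and grey marks the canonical transcript. RPB1 bars sit over the start of all 9 genes, and phospho-Ser2 bars reach past the end of every gene in both cell types and run across almost all of HEXIM1.

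The difference between 5 and 8 genes depended on the summit rule. With any overlap of a region with the window, the counts were 7 of 9 in WT and 8 of 9 in KO, since strong WT regions at CDK9 (8.79, symbol FPGS) and NELFA (9.40, symbol NSD2) overlapped the window with summits 4.02 and 3.47 kb past the end. Among summits inside the window, at CDK9 the WT region 0.481 kb after the start had 4.25, and the highest region past the end had 3.95. At SUPT5H the WT values were 4.87 at the start and 4.32 past the end. At NELFA the strongest WT region with its summit inside had 6.61, with a summit 1.55 kb before the end, and the strongest KO region had 5.97, with a summit 2.26 kb past it.

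The cyclin genes, low in RPB1 at their starts, had the tallest phospho-Ser2 regions after NELFE among summits within 3 kb past the end. At CCNT1 the region past the end had 10.6 in WT (rank 1748) and 10.6 in KO (rank 1456), and it carries the symbol KANSL2. At CCNT2 it had 9.13 in WT (rank 2714) and 9.33 in KO (rank 2174). At NELFE it had 14.9 in WT (rank 603) and 11.3 in KO (rank 1195), in a region of 8.48 kb in WT that carries the symbol CFB, a complement gene of liver. ChIP-seq holds no strand, so polymerase of the gene and of its neighbour cannot be told apart in these regions. Among summits within 3 kb past the end, those at the other genes were lower. NELFCD had 4.50 in WT and 5.11 in KO, and the strongest regions past NELFB carry the symbol TOR4A, with 5.84 in WT and 5.77 in KO. Beyond that limit, the CDK9 region with the symbol FPGS had 8.79 in WT (rank 2979) and 10.9 in KO (rank 1320).

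From the start to 3 kb past the end, the ratio of the strongest phospho-Ser2 region had a median of 0.968 over the 9 genes, against 0.937 over 10332 genes. By summit, HEXIM1 was the only one of the 9 at or below 1/1.5 (12.1% of all genes), and 0 of the 9 were at or above 1.5 (6.09%). A ratio below 1 was found at 6 of 9 genes and at 59.9% of all genes. With any overlap in place of the summit rule, NELFA was also at or below 1/1.5, with 0.635, and CDK9 had 1.24 (0.959 by summit). Apart from HEXIM1, the ratios by summit ran from 0.761 at NELFE to 1.13 at NELFCD. SUPT5H, with the lowest RPB1 ratio over its start, had 0.968 here, but from unlike places. Its strongest WT region was at the start (4.87) and its strongest KO region 1.47 kb past the end (4.71). Within 1 kb of the SUPT5H start, the highest phospho-Ser2 values were 4.87 in WT and 3.26 in KO. At CDK9 and NELFA, too, the strongest regions by summit lay at different places in WT and KO.

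The share of each gene inside a listed region showed HEXIM1 and NELFE apart from the rest. RPB1 regions covered 92.9% of HEXIM1 in WT and 93.9% in KO, and phospho-Ser2 regions covered 100% and 97.8%. At NELFE, RPB1 covered 60.5% and 47.3%, and phospho-Ser2 RPB1 52.1% and 45.6%, within regions shared with CFB. NELFB had 32.7% in WT and 15.7% in KO for RPB1, and 11.0% and 3.71% for phospho-Ser2 RPB1. Much of this came from regions near the peak threshold. At a −log10 q-value of at least 5, NELFB had 17.0% in WT and 8.14% in KO for RPB1. For phospho-Ser2 RPB1 it had 0.170% in WT, and the KO regions inside the gene, with −log10 q-values of 3.89 and 4.10, fell below that limit. Phospho-Ser2 coverage was higher in KO at the cyclin genes and NELFCD, with 14.2% in WT and 20.1% in KO at CCNT1, 18.3% and 21.3% at CCNT2, and 7.10% and 8.80% at NELFCD. The median over the 9 genes was 16.2% for RPB1 in WT and 14.1% in KO, against 4.32% and 3.80% over the 10906 genes with RPB1 over the start. Over canonical transcripts the RPB1 medians of the 9 were 7.40% in WT and 9.87% in KO, in the opposite order, and with 1 kb before and 3 kb past each gene they were 18.2% in both. For phospho-Ser2 RPB1 the medians were 14.2% and 8.99%, against 6.84% and 4.39%. With 1 kb before and 3 kb past each gene included, the medians for phospho-Ser2 RPB1 were 21.3% in WT and 23.7% in KO, in the opposite order. SUPT5H, the middle gene for RPB1 in both cell types, depends on the model used. RPB1 covered 16.2% of its gene record in WT and 14.1% in KO, and 3.40% and 1.91% of its canonical transcript. The 10906 genes were not matched to the 9 in length, and no median over their canonical transcripts was taken.

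**Figure D4:**
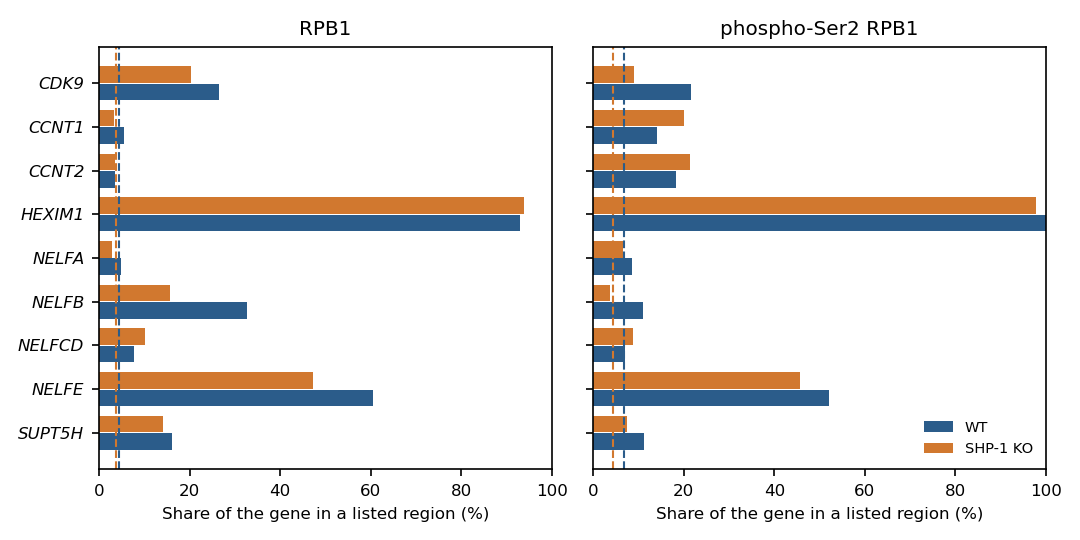
Share of each gene inside a listed region (x axis, percent, bars from 0) for RPB1 (left) and phospho-Ser2 RPB1 (right) in WT (blue) and SHP-1 KO (orange) cells, with dashed lines at the medians over 10906 genes with RPB1 over the start. HEXIM1 is covered almost entirely and NELFE by 45.6 to 60.5%, and the other genes lie at 32.7% or below.

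Regions were also matched between the cell types. Of 41 WT RPB1 regions at the 9 genes, 30 were overlapped by a KO region (73.2%, against 61.9% of all WT RPB1 regions), and 34 of 39 KO regions had a WT partner (87.2%, against 74.9%). Of 72 WT phospho-Ser2 regions 36 were overlapped (50%, against 52.2%), and of 62 KO regions 36 (58.1%, against 69.9%).

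A list of 32 other genes of pausing and elongation was read in the same way. It holds partners of HEXIM1, the super elongation complex, the PAF complex, DSIF and FACT subunits, Integrator subunits and the kinases CDK12 and CDK13. An RPB1 region lay over the start of all 31 protein-coding genes of the list in each cell type, and RN7SK, the noncoding RNA that RNA polymerase III transcribes, had no assigned RPB1 region. EAF1 and CCNK had none by symbol although their starts were covered. The median KO to WT ratio over the start was 0.683, against 0.717 over all genes covered in both lists. Of the 31 genes, 14 were at or below 1/1.5 (40% of all genes) and 0 at or above 1.5 (1.09%). By assigned symbol the median was 0.742, and over all genes it was also 0.742. Of 29 genes with a region in both lists, 1 was at or above 1.5 (2.68% of all genes). At or below 1/1.5 were 9 of the 29, against 36.1% of all genes. Among these 9 were ELL (0.484), EAF2 (0.522), PAF1 (0.533), SUPT16H (0.573), INTS11 (0.618), POLR2M (0.643), CDK13 (0.651) and CTR9 (0.659). MEPCE, which caps the RNA that HEXIM1 binds, had 1.81 by symbol and 0.900 over its start. For phospho-Ser2 RPB1 the median by symbol was 0.941, against 0.936 over all genes. Of 25 genes with a region in both lists, 2 were at or above 1.5 (5.71% of all genes) and 1 at or below 1/1.5 (11.7%). By symbol, ELL3 had 2.72 and SUPT4H1, which encodes the partner of SUPT5H in DSIF, 1.56, while INTS11 had 0.620. Over the start, ELL3 had a phospho-Ser2 region in KO only (17.3) and INTS11 in WT only (3.78), so their ratios by symbol do not compare the starts. SUPT4H1 had a phospho-Ser2 ratio of 1.91 over its start. A phospho-Ser2 region lay over the start of 19 genes of this list in WT, 14 in KO and 11 in both. Over all protein-coding genes the shares were 25.8% in WT and 23.5% in KO. The median start ratio of those 11 genes was 0.820, against 0.976 over all genes covered in both lists. At SUPT4H1 the RPB1 region over the start had 16.9 in WT and 15.6 in KO, so the DSIF genes differed in RPB1, with ratios of 0.922 and 0.391.

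By assigned symbol, UBE2R2 and DUSP12 were among the genes whose 4 highest fold enrichments lay nearest to the medians of the 9, at log2 distances of 0.13 and 0.14 among 9237 genes with a region in all 4 lists. By symbol the RPB1 medians were 27.8 in WT over 8 genes and 32.4 in KO over 7, an order opposite to that of the medians over the starts.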

How the data were processed

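Regions occupied by RPB1 and by phospho-Ser2 RPB1 were mapped in HepG2 cells of the 2 genotypes, 1 library for each antibody and genotype. Neither of the 2 input libraries was used here. Reads had been trimmed (Trimmomatic), aligned to hg38 (BWA) and turned into narrow peaks (MACS2, every ChIP library with its matched input) by the authors. Versions are not given in the sources used here. The lists the authors deposited hold, per region, a fold enrichment at the summit relative to input, which is a ratio, a −log10 p-value, a −log10 q-value and a browser score, as MACS2 writes them, with a feature and a nearest gene added. A further deposited table of RPB1 differences (windows up and down, p-values) is the authors' own comparison and was not used.

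From these lists, regions were taken by symbol and by position. Gene spans and canonical starts came from GENCODE release 44. Of 31 member transcripts named in the lists, 29 were found there and 25 had the same start and end. All 271336 regions lay within their hg38 sequence. The highest fold enrichment per gene was compared as a KO to WT ratio, and a ratio past 1.5 in either direction was counted. Windows were 1 kb at the start and 3 kb past the end, with regions placed by their summit, and an overlap needed 1 bp. Named were all 9 genes, listed genes past 1.5 or with RPB1 in 1 cell type alone, neighbours that carry a region of a member, and the 3 nearest profiles. Of the genes this rule takes, 2 are not reported here. KANSL2, FPGS, MIR3960, RN7SK, EAF1 and CCNK were named after their values were seen. No reads were used, so depth is unknown, and no p-value was computed. The ratio functions were tested on simulated data. The members and lists were chosen with earlier results of these data known. Alternatives were a stricter −log10 q-value of 5, position instead of symbol, other windows, medians, a fold of 2 and promoter regions only. Python 3.11.15, pandas 2.3.3, NumPy 2.4.6 and Matplotlib 3.10.9 were used.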

Additional observations from a re-analysis of the deposited data

How the results depend on the processing

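No paired analysis was possible because each antibody and genotype had 1 library. Leaving out a replicate was not possible for the same reason. Neither depth nor replicate spread is known, regions below the peak threshold have no value, and a fold enrichment holds the recovery of its own library. A count or ratio was taken as stable when it moved by less than 1.5 times, and the cause of a larger move was not tested except where given.

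The RPB1 ratio of NELFB changed direction with the assignment. It was 4.33 by symbol, 0.611 by position and over the start, and 0.959 as the median over regions. The RPB1 ratio of SUPT5H was 0.391 by symbol and over the start, 0.696 by position, where the RPS16 region is the strongest, and 0.886 as the median over regions. Among promoter regions only, NELFB had no WT region by symbol and so no value. The median ratio over the genes moved by less than 1.5 times in every alternative, for RPB1 and for phospho-Ser2 RPB1. Over the start, the phospho-Ser2 value was 0.654 (from 0.933). It came from HEXIM1 alone, the only gene with such a region in both lists, and so is no median over the genes.

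By position instead of symbol, the WT RPB1 regions were 41 (24 by symbol), the genes with a promoter RPB1 region in WT were 9 (5 by symbol), also over or within 1 kb of the start, RPB1 ratios of at least 1.5 were 0 (1 by symbol) and phospho-Ser2 ratios of at most 1/1.5 were 2 (1 by symbol). The second was NELFA, with 0.635, where a WT region of 9.40 with the symbol NSD2 lies just past the gene end. Over the start itself, 1 gene had phospho-Ser2 RPB1 in KO (6 by symbol) and 0 had an RPB1 ratio of at least 1.5, as also among promoter regions only. With the median over regions in place of the highest, the median percentile within the list was 53.7 for RPB1 in WT (from 87.2), 51.7 in KO (from 94.2), 48.7 for phospho-Ser2 RPB1 in WT (from 82.4) and 49.5 in KO (from 82.3), 0 RPB1 ratios were at least 1.5 and 0 phospho-Ser2 ratios at most 1/1.5. Divided by the median ratio of all genes, 1 RPB1 ratio was at most 1/1.5 (from 3), 2 were at least 1.5 and 0 phospho-Ser2 ratios were at most 1/1.5. With a fold of 2, 1 RPB1 ratio (SUPT5H) and 0 phospho-Ser2 ratios were lower, and among the 32 other genes 1 RPB1 ratio was lower, 0 higher, and for phospho-Ser2 RPB1 0 were lower and 1 higher.

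At a −log10 q-value of 5, the phospho-Ser2 regions were 30 in WT (from 64) and 28 in KO (from 57). RPB1 summits were 5 in the body and 4 past the end in WT (from 16 and 9) and 5 and 7 in KO (from 12 and 15). Phospho-Ser2 summits in the body were 16 in WT (from 47) and 17 in KO (from 45). Median coverage was 8.14% for RPB1 in KO, and 6.74% in WT and 5.69% in KO for phospho-Ser2 RPB1. Of the 32 other genes 0 had an RPB1 ratio of at least 1.5. With 1 kb before and 3 kb past the gene, median phospho-Ser2 coverage was 21.3% in WT and 23.7% in KO, so the order of the cell types turned. Over canonical transcripts it was 14.3% in KO, and that of RPB1 7.40% in WT and 9.87% in KO, also in the opposite order. With any overlap in place of the summit rule, 2 genes had a phospho-Ser2 ratio of at most 1/1.5 in the window to 3 kb past the end (from 1). Within 500 bp of the start, 3 phospho-Ser2 summits were listed in KO (from 6). The alternatives by overlap with that window, over the start, within 1 kb of it and over canonical transcripts were chosen after seeing the data.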
